A study of Mus musculus with 9 samples.

Results

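Retnla, Il1r2 and Erdr1 are 3 genes whose transcript levels differed between AhR-d, AhR null and control mast cells, each in a different way. They were selected on the array values themselves, because their AhR-d arrays did not lie between the AhR null and the control arrays, or because AhR-d and AhR null differed sharply. They are 3 of the 16593 named genes on the array, and each has 1 of its 25697 probes. Retnla was high in AhR-d cells, not detected in AhR null cells and detected on 1 of 3 control arrays. Il1r2 was present in AhR-d and control cells and not detected in AhR null cells. Erdr1 was detected on none of the 3 AhR-d arrays, against 2 of 3 AhR null arrays and all 3 control arrays. Their differences between genotypes are given as descriptions, with no test.

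The arrays hold RNA of bone-marrow-derived mast cells, which are mast cells grown from marrow with IL-3. All mice are labelled C57BL/6J, and there were 3 AhR-d, 3 AhR null and 3 normal control arrays (called control here). The aryl hydrocarbon receptor (AhR) turns on transcription once a ligand is bound. Ahr-d is known as the low-affinity allele, against the high-affinity allele of C57BL/6J, and a null genotype lacks the receptor. Cells of every genotype grew for 4 weeks with 30% conditioned medium of WEHI-3, an IL-3-secreting line, were purified by removal of other cells on magnetic beads, and then spent 4 h without cytokines. The labels assign the arrays to 3 culture batches, each with 1 array of every genotype, so replicate numbers are batch numbers. The age, the number of animals behind a culture and how the alleles were made or backcrossed are not given in the sources used here. P-values therefore measure the spread between these cultures.

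Between 7901 and 9733 probes were detected per array, where detected means a detection p-value under 0.01. No array, control or other, detected Ahr itself, so the genotype labels were not checked on it. Ahrr, whose transcription AhR activates, averaged 7.80 ± 0.42 in AhR-d, 5.37 ± 0.20 in AhR null and 9.07 ± 0.12 in control cells on the normalised log2 scale (SD, n = 3 each), and no AhR null array detected it. Of 18 mast cell markers on the array, 17 to 18 were detected on AhR-d, 18 on AhR null and 16 to 17 on control arrays. The batch 2 arrays of every genotype detected Xist and neither Eif2s3y nor Kdm5d of the Y chromosome, and the arrays of batches 1 and 3 detected both of these and no Xist.

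Retnla encodes RELM-alpha (also called FIZZ1), a secreted cysteine-rich protein of the resistin family. It is a textbook target of IL-4 and IL-13 acting through STAT6, and marks alternatively activated macrophages. Il1r2 encodes the IL-1 type 2 receptor, a decoy that binds IL-1 without signalling and so competes with the signalling receptor Il1r1; glucocorticoids are known to induce it. Erdr1, erythroid differentiation regulator 1, lies next to the pseudoautosomal boundary of the mouse sex chromosomes, a region of repeated sequence that is incompletely assembled. Its probe was annotated to a coding transcript, whereas the RefSeq table used here lists Erdr1 as a transcribed pseudogene. Copies there cannot be told apart by 1 probe.

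In RefSeq's GRCm38.p6 annotation Retnla spans chr16:48842609-48844461, Il1r2 chr1:40084692-40125230 and Erdr1 chrX:170010526-170018797. Promoter sequence was at hand for 2 of the 3 genes and is shown because the study varies a transcription factor and the genes follow its genotypes differently. Each sequence runs from 250 bases before to 50 bases after a transcript start, on the plus strand. Retnla is chr16:48842359-48842658 and Il1r2 is chr1:40085843-40086142, which begins inside the annotated span of Il1r2. Capitals mark matches to GCGTG, the core of the AhR response element, and to the form of motif that STAT6 binds, TTC and GAA with 4 bases between, searched on both strands.
Retnla: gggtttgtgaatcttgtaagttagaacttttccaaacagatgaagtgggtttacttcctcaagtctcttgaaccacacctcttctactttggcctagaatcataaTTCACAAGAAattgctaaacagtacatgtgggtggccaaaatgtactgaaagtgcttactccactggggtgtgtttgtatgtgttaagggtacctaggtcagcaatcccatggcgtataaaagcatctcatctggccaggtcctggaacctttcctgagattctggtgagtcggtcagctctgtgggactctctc
Il1r2: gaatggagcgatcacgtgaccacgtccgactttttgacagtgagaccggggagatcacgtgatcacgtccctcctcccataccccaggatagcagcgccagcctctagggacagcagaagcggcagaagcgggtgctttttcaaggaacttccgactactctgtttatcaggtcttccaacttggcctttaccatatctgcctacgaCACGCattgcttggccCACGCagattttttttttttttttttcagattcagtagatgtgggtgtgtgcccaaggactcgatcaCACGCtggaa
The Retnla window holds 1 match to the STAT6 motif, 145 bases before the start, and 0 GCGTG matches. The Il1r2 window holds 3 GCGTG matches, all read as CACGC on this strand, at 43 and 27 bases before the start and 41 bases after it, and 0 matches to the STAT6 motif. The glucocorticoid receptor's motif, GNACA and TGTNC with 3 bases between, was found in neither. Among all 32851 windows of this length, GCGTG occurs in 32.4%, 3 or more GCGTG matches in 3.91%, the STAT6 motif in 6.95% and the glucocorticoid receptor's in 0.475%. None of these matches was tested for binding.

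Retnla signal stood at 494, 793 and 437 in AhR-d replicates 1, 2 and 3, at 236, 199.9 and 199 in AhR null replicates 1, 2 and 3, and at 130.04, 212 and 236 in control replicates 1, 2 and 3 (linear intensity as deposited). All 3 AhR-d arrays detected it, none of the 3 AhR null arrays did, and 1 of the 3 control arrays, replicate 3, did. The AhR null arrays missed the threshold of 0.01 with detection p-values of 0.015, 0.0664 and 0.0576, so replicate 1 was close to it. After background correction and quantile normalisation the log2 values were 7.63, 9.58 and 9.16 in AhR-d, 5.62, 5.21 and 5.29 in AhR null, and 4.93, 5.59 and 7.24 in control cells. The AhR-d arrays lay above the other 6, with control replicate 3, which detected it, 0.39 below the lowest of them. AhR-d replicate 1 was the lowest of its genotype.

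The mean of Retnla was 8.79 ± 1.03 in AhR-d, 5.37 ± 0.21 in AhR null and 5.92 ± 1.19 in control cells (SD, n = 3 each). AhR-d exceeded AhR null by 3.42 on the log2 scale (SE 0.55). Since AhR null arrays did not detect it, this is stated as at least 8.47-fold higher in AhR-d, the AhR-d mean over the lowest detectable level of the AhR null arrays or the probe's own value, whichever was higher. AhR-d exceeded control by 2.87 (SE 0.55), with 1 of 3 control arrays measuring it. Within batches 1, 2 and 3 the AhR-d minus AhR null difference was 2.01, 4.37 and 3.87, and the AhR-d minus control difference 2.70, 3.99 and 1.91. Between AhR null and control no direction is given, since 1 of these 6 arrays, control replicate 3, detected it and in batches 1 and 2 neither genotype's array did.

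Retnla is a low-signal probe, and the size of its change depends on background removal. On the authors' deposited log2 values, which keep the background, AhR-d exceeded AhR null by 1.47 and control by 1.37. The 3 AhR-d arrays still lay above the other 6 there, at 9.18, 10.12 and 9.38 in AhR-d, 8.17, 8.04 and 8.06 in AhR null and 7.95, 8.12 and 8.49 in control cells. The limit to keep in view is the detection filter, which asked for 3 of 9 arrays: Retnla was detected on 4, 3 of them AhR-d, so it passed only through the genotype in which it was high.

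**Figure D1:**
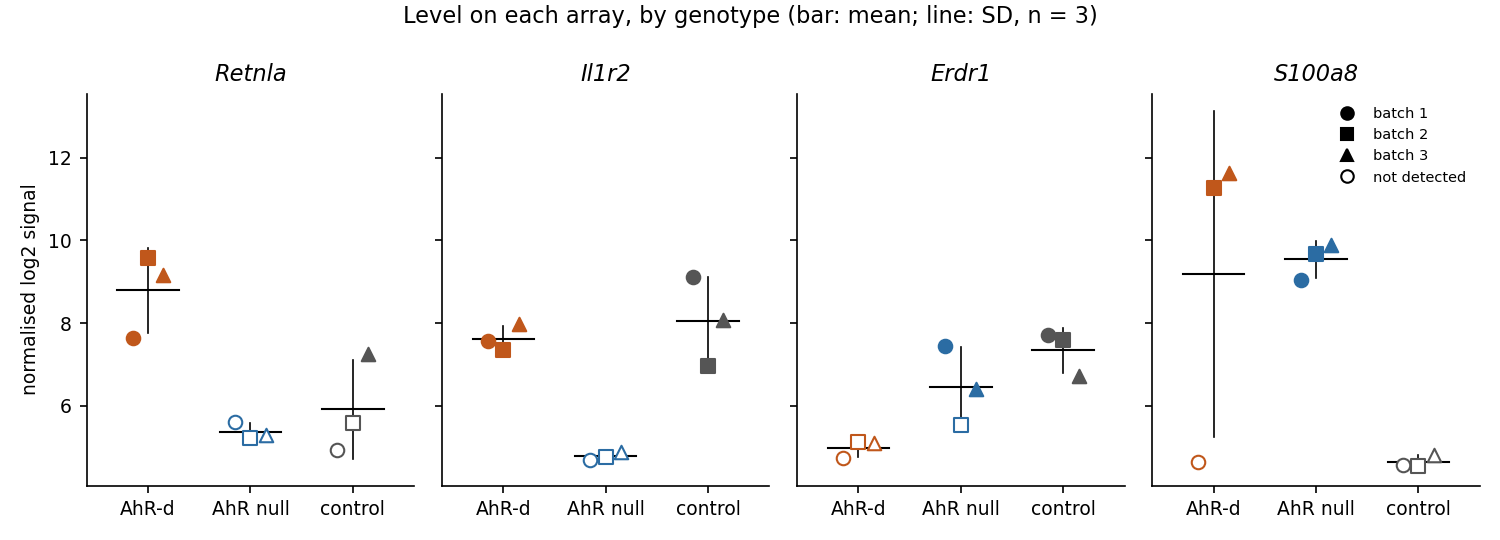
Normalised log2 signal (y axis) of Retnla, Il1r2, Erdr1 and S100a8 on each array, by genotype (x axis); symbols give the batch, open symbols an array that did not detect the probe, bars the mean and vertical lines the SD (n = 3). Retnla was high in AhR-d (mean 8.79), Il1r2 undetected in AhR null (mean 4.78) and Erdr1 undetected in AhR-d (mean 4.98); heights of different probes are not comparable.

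Il1r2 signal was 478, 287 and 274 in AhR-d, 188, 177 and 181 in AhR null, and 420.1, 288 and 301 in control replicates 1, 2 and 3. All 3 AhR-d arrays and all 3 control arrays detected it, and no AhR null array did, with detection p-values of 0.553, 0.484 and 0.282 there. The normalised log2 values were 7.56, 7.35 and 7.97 in AhR-d, 4.70, 4.76 and 4.89 in AhR null, and 9.11, 6.95 and 8.06 in control cells. AhR null arrays lay below the other 6 by a wide margin. AhR-d and control arrays overlapped, with control replicate 1 the highest array and control replicate 2 the lowest of those that detected it.

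Il1r2 averaged 7.62 ± 0.31 in AhR-d, 4.78 ± 0.10 in AhR null and 8.04 ± 1.08 in control cells (SD, n = 3 each). AhR-d exceeded AhR null by 2.84 (SE 0.42), at least 3.78-fold, and by 2.86, 2.59 and 3.08 within batches 1, 2 and 3. AhR null minus control was -3.26 (SE 0.42), at least 5.04-fold lower in AhR null, and -4.41, -2.19 and -3.18 within the batches. AhR-d minus control was -0.42 (SE 0.42), with -1.55, 0.40 and -0.10 within the batches, so the AhR-d and control levels were not separated by more than their spread. Without control replicate 1 that difference was 0.12. On the deposited log2 values AhR-d exceeded AhR null by 0.95, and AhR null minus control was -1.14.

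Erdr1 ran the other way from Retnla in AhR-d cells. Its signal was 197, 183 and 168 in AhR-d, 418, 216 and 254 in AhR null, and 227, 356 and 211 in control replicates 1, 2 and 3. No AhR-d array detected it, AhR null replicates 1 and 3 did, and all 3 control arrays did. AhR null replicate 2 missed detection with a detection p-value of 0.0125. The normalised log2 values were 4.73, 5.11 and 5.10 in AhR-d, 7.44, 5.53 and 6.41 in AhR null, and 7.71, 7.59 and 6.72 in control cells. The 3 AhR-d arrays lay below the 5 arrays that detected it. AhR null replicate 2 was undetected too, so it and the AhR-d arrays have no order.

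The mean of Erdr1 was 4.98 ± 0.22 in AhR-d, 6.46 ± 0.96 in AhR null and 7.34 ± 0.54 in control cells (SD, n = 3 each). AhR-d minus control was -2.36 (SE 0.44), at least 2.47-fold lower in AhR-d, and -2.98, -2.47 and -1.62 within batches 1, 2 and 3. AhR-d minus AhR null was -1.48 (SE 0.44) with undetected values taken as they stand, and -2.71 in batch 1 and -1.31 in batch 3. No fold is given as a bound here, because the AhR null mean includes replicate 2, which did not detect it. In batch 2 neither array detected it, and no difference is given. AhR null minus control was -0.88 (SE 0.44) with overlapping groups and -0.27, -2.06 and -0.31 within the batches. On the deposited log2 values AhR-d minus control was -0.70 and AhR-d minus AhR null -0.57, and the batch differences of AhR null minus control were 0.23, -0.72 and 0.09, so batches 1 and 3 changed sign.

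**Figure D2:**
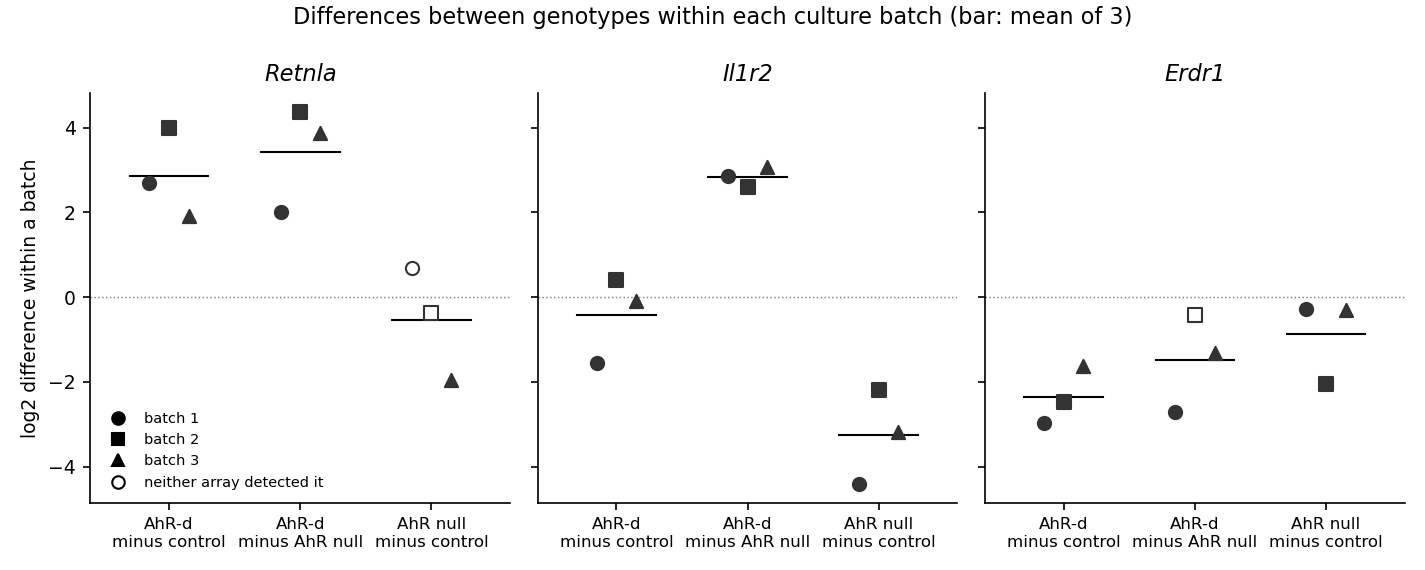
Difference in normalised log2 signal (y axis) between 2 genotypes within each culture batch, for the 3 comparisons (x axis) of Retnla, Il1r2 and Erdr1; bars are the mean of the 3 batches, and open symbols mark a batch in which neither array detected the probe. Retnla in AhR-d minus AhR null lies between 2.01 and 4.37, Il1r2 in the same comparison between 2.59 and 3.08, and Erdr1 in AhR-d minus control between -2.98 and -1.62.

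The placements were set against those of all 7449 features tested, with undetected values taken as they stand. An AhR-d mean outside the interval between the other 2 means was common: 1635 features (21.9%) had it above both and 1736 (23.3%) below both. Features whose 3 AhR-d arrays all lay above the other 6 numbered 51 (0.685%), and 41 (0.55%) had all 3 below. Retnla is among the 51; Erdr1 is counted among the 41, although AhR null replicate 2 has no order against its AhR-d arrays. Features whose 3 AhR null arrays lay below the other 6 were far more common, at 604 (8.11%), Il1r2 among them. The genes were picked for these placements, so these counts describe them and support nothing.

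In the same fit, limma called 25 features (0.336%) between AhR-d and control at an adjusted p under 0.05, 21 higher (0.282%) and 4 lower (0.0537%). Between AhR-d and AhR null it called 185 (2.48%), 124 higher (1.66%) and 61 lower (0.819%), and between AhR null and control 921 (12.4%), 489 higher (6.56%) and 432 lower (5.8%). With batch as a replicate block these became 118, 502 and 1580 features. The split by direction depends on scaling: on the deposited log2 values 27 were higher and 140 lower between AhR-d and AhR null, and 831 higher and 90 lower between AhR null and control, and with median scaling 35 and 88, and 837 and 86.

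S100a8, a calgranulin subunit abundant in neutrophils and monocytes, served as the myeloid reference beside the 3 genes. Its signal was 191, 2278 and 1877 in AhR-d, 926, 1263 and 1189.6 in AhR null, and 116, 165 and 158 in control replicates 1, 2 and 3. AhR-d replicates 2 and 3 and all 3 AhR null arrays detected it, and AhR-d replicate 1 and all 3 control arrays did not. The normalised log2 values were 4.65, 11.27 and 11.63 in AhR-d, 9.05, 9.67 and 9.89 in AhR null, and 4.58, 4.55 and 4.82 in control cells. S100a8 was thus split within AhR-d and uniform within the other genotypes.

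No control array detected S100a8, so it passed the detection filter only through AhR-d and AhR null arrays, which favours a rise against control. S100a8 in AhR null was at least 10.9-fold higher than in control (log2 difference 4.89, SE 1.25, limma adjusted p = 0.0208). That call was lost with any 1 of 5 arrays left out (any AhR null array, or replicate 1 or 3 of the controls), where the difference ran from 4.71 to 5.13 and the adjusted p up to 0.0721. AhR-d minus control was 4.53 (SE 1.25, adjusted p = 0.205), with 6.73 and 6.81 in batches 2 and 3, while in batch 1 neither array detected it. It passed with batch as a replicate block (adjusted p = 0.0194) and without AhR-d replicate 1 (6.80, adjusted p = 4.9e-08). AhR-d minus AhR null was -0.35 (SE 1.25, adjusted p = 0.926), and 1.92 without AhR-d replicate 1 (adjusted p = 0.00425).

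Retnla and S100a8 did not run in parallel over the 9 arrays. AhR-d replicate 1 had Retnla at 7.63 with S100a8 undetected, and control replicate 3 had Retnla at 7.24 with S100a8 undetected. The AhR null arrays had S100a8 between 9.05 and 9.89 with Retnla undetected. AhR-d replicates 2 and 3 had both, and the highest Retnla values. Lyz2, a lysozyme of macrophages and granulocytes, stood at 8.92, 12.38 and 11.94 in AhR-d replicates 1, 2 and 3. It stood at 9.67, 10.03 and 11.24 in AhR null and 5.18, 7.45 and 9.13 in control replicates 1, 2 and 3. The control array that detected Retnla was thus the control array highest in Lyz2. Every AhR null array stood higher in Lyz2, with Retnla undetected. Without AhR-d replicate 1, Retnla in AhR-d exceeded control by 3.45 and AhR null by 4.00. Il1r2 and Erdr1 showed no such split within AhR-d: replicate 1 stood at 7.56 against 7.35 and 7.97 for Il1r2, and all 3 arrays lacked Erdr1.

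**Figure D3:**
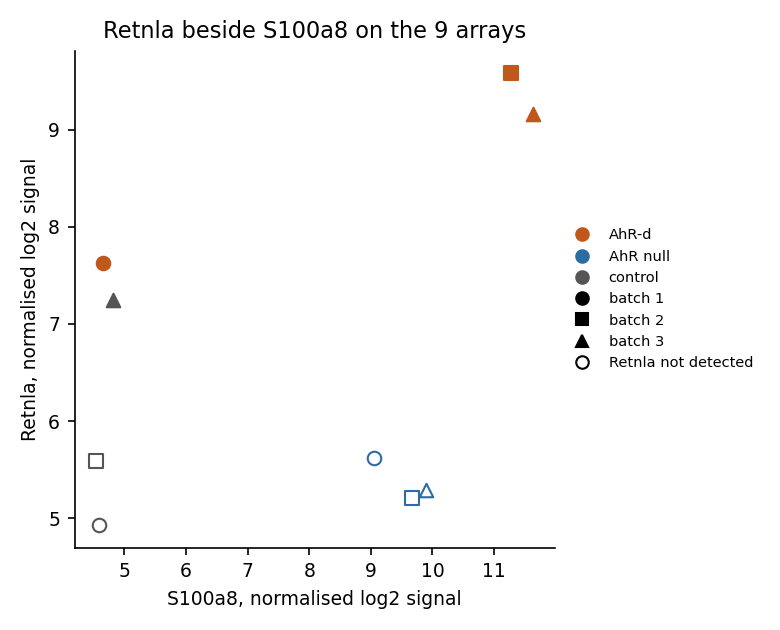
Normalised log2 signal of Retnla (y axis) against that of S100a8 (x axis) on the 9 arrays; colour gives the genotype, shape the batch, and open symbols arrays that did not detect Retnla. AhR-d replicate 1 has Retnla at 7.63 with S100a8 at 4.65, and the 3 AhR null arrays have S100a8 between 9.05 and 9.89 with Retnla undetected.

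The neutrophil markers that AhR-d arrays detected were split as S100a8 was, which is itself on the list. Ngp, Camp, Csf3r, Cxcr2, Mmp8 and Fcnb were detected on no array of any genotype. Of 15 neutrophil markers on the array, 0 to 8 were detected on AhR-d arrays, 6 to 7 on AhR null arrays and 0 on control arrays, and the 0 among AhR-d arrays was replicate 1. Their summed level (linear, normalised) ranged from 440 to 5587 in AhR-d, 1393 to 2177 in AhR null and 425 to 450 in control cells. That sum leans on its brightest members: in AhR-d replicate 3 its log2 was 12.45, with S100a8 alone at 11.63. Of 16 monocyte and macrophage markers, 5 to 9 were detected in AhR-d, 6 to 9 in AhR null and 3 to 5 in control cells, with summed levels of 2886 to 15523, 3773 to 8844 and 1499.6 to 3903 in that order. AhR-d replicate 1, where Retnla was detected and no neutrophil marker was, had 5 monocyte and macrophage markers detected, and control replicate 3 had 4. Arrays without Retnla had as many or more: control replicate 2 had 5 and the AhR null arrays 6 to 9. Dendritic cell markers were detected at 1 to 2 of 8 in AhR-d, 1 to 2 in AhR null and 1 in control cells, and of 8 lymphocyte markers at most 1 was detected on any array. Eosinophil and basophil markers were detected at 4 to 6 of 10 in AhR-d, 5 in AhR null and 3 in control cells. In these bulk samples more cells of a type and more RNA per cell cannot be told apart, and the part of these markers in the Retnla levels was not tested.

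In the limma fit 6.56% of all features rose in AhR null against control and 5.8% fell. Of 7 measured neutrophil markers, none was detected on a control array, so each passed the detection filter only through AhR-d and AhR null arrays. That filter favours a rise against control, so the results of this list are a description. Among the 7, 3 rose in AhR null against control, with a list median of 1.87 against -0.03 for all features. The count was 5 with batch as a replicate block or without AhR-d replicate 1 or 2, and 0 without any 1 of the same 5 arrays as for S100a8. Of 7 measured genes on the monocyte and macrophage list, 4 rose and 1 fell (median 2.22), among 5 eosinophil and basophil markers 1 rose (median 0.72; 2 passed with the block or without AhR-d replicate 1 or 2), and of 2 dendritic markers 0 passed, with 0 at an unadjusted p under 0.05. The gene that fell was Cx3cr1, the fractalkine receptor, by 1.60 (adjusted p = 0.00816), and it did not pass on the deposited values (-0.82, adjusted p = 0.0755) or with median scaling (-0.99, adjusted p = 0.106). Of those that rose, Lyz1 and Lyz2 did not pass with no background correction (adjusted p = 0.0582 and 0.0649) or robust variance (0.198 and 0.193), nor Lyz1 with the mean of a gene's probes (0.0555). The monocyte and macrophage count was 2 without AhR null replicate 2 and 3 without AhR null replicate 1 or 3 or control replicate 1 or 2. Between AhR-d and control, where 0.336% of all features passed, 0 of these 4 lists' members did. An unadjusted p under 0.05 was found there for 6 of 7 neutrophil and 4 of 7 monocyte and macrophage markers. The same held for 3 of 5 eosinophil and basophil and 1 of 2 dendritic markers. The share of all features with an unadjusted p under 0.05 is not given here, so these counts have no background beside them. Without AhR-d replicate 1, 5 neutrophil, 2 monocyte and macrophage, 2 eosinophil and basophil and 1 dendritic marker passed there, and with batch as a replicate block 3, 3, 1 and 0. Median scaling gave 3, 2, 1 and 0, the deposited values 1, 2, 0 and 0, and no filter on detection 0, 2, 0 and 0. Lyz1 and Lyz2 passed there on the deposited values (2.87 and 2.78, adjusted p = 0.00254 each), and with median scaling they did too, as did Chil3 of the neutrophil list (2.91, adjusted p = 0.0112). Without control replicate 2, 1 monocyte and macrophage and 1 eosinophil and basophil marker passed. Between AhR-d and AhR null, where 2.48% of all features passed, 0 members of the 4 lists did. An unadjusted p under 0.05 was found for 0, 3, 1 and 1. Without AhR-d replicate 1, 3 neutrophil, 1 eosinophil and basophil and 1 dendritic marker passed there, and without AhR-d replicate 2, 2 monocyte and macrophage markers. The block gave 0, 2, 1 and 0, and the deposited values 0, 1, 1 and 0. With median scaling, no background correction or only the 2 genotypes, 1 monocyte and macrophage marker passed. With the block 118 of all features passed between AhR-d and control, 502 between AhR-d and AhR null, and 1580 between AhR null and control.

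Retn, Retnlb and Retnlg, the other resistin family genes, were not detected on any of the 9 arrays. Retnlb and Retnlg flank Retnla on chromosome 16, and the further neighbours Morc1, Trat1 and Cip2a were not detected either. Dzip3, a ubiquitin ligase gene and the neighbour measured well enough to test, differed by -0.41 between AhR-d and control (SE 0.40, adjusted p = 0.87) and by 0.19 between AhR-d and AhR null (SE 0.40, adjusted p = 0.855).

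Of the IL-4 and IL-13 pathway and alternative activation genes, 30 of 32 were on the array and 13 were measured. Between AhR-d and control 0 of 13 passed, with a median of 0.06 against -0.01 for all features and 2 at an unadjusted p under 0.05. Between AhR-d and AhR null 0 of 13 passed, with a median of 0.23 against 0.0044 for all features, and 3 had an unadjusted p below 0.05. With batch as a replicate block 2 members passed in each of these comparisons. Without AhR-d replicate 1, 1 passed against control and 2 against AhR null, and without control replicate 2, 1 passed against control. Of all 7449 features, 0.336% passed between AhR-d and control and 2.48% between AhR-d and AhR null. With the block 118 and 502 features passed in that order. The cytokine Il4 itself stood at 10.74 ± 0.24 in AhR-d, 11.17 ± 0.23 in AhR null and 11.04 ± 0.44 in control cells, and Il13 at 7.40 ± 0.33, 6.95 ± 0.16 and 7.45 ± 0.94 in the same order (SD, n = 3 each). The transcription factor Stat6 differed by -0.07 between AhR-d and control (adjusted p = 0.972) and by 0.29 between AhR-d and AhR null (adjusted p = 0.509).

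Arg1, Chil3 and Tgm2, which are also linked to alternative activation, had levels unlike the high AhR-d and undetected AhR null of Retnla. Other members of the list had higher means in AhR-d than in AhR null. Egr2 averaged 10.12, 9.10 and 9.57 in AhR-d, AhR null and control cells, Socs1 8.06, 7.05 and 8.17, and Clec10a 8.07, 7.49 and 7.94. Over the 13 measured members AhR-d minus AhR null ran from -1.09 (Tgm2) to 1.02 (Egr2). Arg1, arginase 1, was detected on 0 of 3 AhR-d, 1 of 3 AhR null and 0 of 3 control arrays. Chil3, the chitinase-like protein Ym1, averaged 8.08 ± 3.01 in AhR-d, 8.32 ± 0.62 in AhR null and 4.76 ± 0.12 in control cells (SD, n = 3 each), and like S100a8 was not detected in AhR-d replicate 1. Chil3 was at least 4.70-fold higher in AhR null than in control (adjusted p = 0.0311), a call lost when any 1 AhR null or control array was left out, with no background correction (adjusted p = 0.0802) and with robust variance (0.157). Tgm2, transglutaminase 2, rose by 2.67 in AhR null against control (SE 0.34, adjusted p = 0.000166), and AhR-d minus control was 1.58 (SE 0.34, adjusted p = 0.0731, or 2.5e-05 with batch as a replicate block and 0.0151 without control replicate 2). AhR-d minus AhR null of Tgm2 was -1.09 (SE 0.34, adjusted p = 0.122, or 0.000253 with the block). Chil3 and Tgm2 were the 2 of 13 that passed between AhR null and control, where 12.4% of all features passed. Chil3 was detected on no control array, so it passed the detection filter only through AhR-d and AhR null arrays.

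Il1r2 lies in a cluster of IL-1 receptor family genes. Il1r1, the signalling receptor, was detected on 0 of 3 AhR-d, 1 of 3 AhR null and 0 of 3 control arrays, and Il1rl2, the IL-36 receptor, on 1, 1 and 0. Il18r1, the IL-18 receptor chain, had its highest values where Il1r2 was undetected: 9.87, 10.31 and 9.46 in AhR-d, 10.58, 10.41 and 10.95 in AhR null, and 9.48, 9.71 and 9.02 in control replicates 1, 2 and 3. Il18r1 rose by 1.24 in AhR null against control (SE 0.24, adjusted p = 0.00444). AhR-d minus AhR null of Il18r1 was -0.77 (SE 0.24, adjusted p = 0.129, or 0.0477 with batch as a replicate block), and AhR-d minus control 0.48 (adjusted p = 0.708). On the other side, Map4k4, a kinase gene, fell by 1.01 in AhR null against control (SE 0.28, adjusted p = 0.0329), a call lost without any 1 AhR null array or without control replicate 1 or 3, and the difference was -0.19 on the deposited values. Cnot11 differed by 0.11 there (adjusted p = 0.821), and Creg2 was not detected.

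Among IL-1 ligands and antagonists 4 genes were measured. Il1b, the main secreted IL-1, was detected on all 9 arrays and averaged 8.47 ± 0.57 in AhR-d, 9.10 ± 0.25 in AhR null and 7.40 ± 0.78 in control cells (SD, n = 3 each). It was the 1 of 4 that rose in AhR null against control, where 6.56% of all features rose. Its rise was 1.69 (SE 0.36, limma adjusted p = 0.00756), in the comparison in which Il1r2 was lower. AhR-d minus control of Il1b was 1.07 (adjusted p = 0.356) and AhR-d minus AhR null -0.63 (adjusted p = 0.402). Of the 4, 0 passed in these 2 comparisons, with 1 and 0 at an unadjusted p under 0.05. Il1rn, the IL-1 receptor antagonist, was not detected on any array.

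Of 15 measured IL-1 receptor family and signalling genes, 0 passed between AhR-d and control (2 had an unadjusted p below 0.05, and 1 passed with batch as a replicate block). Between AhR-d and AhR null 1 fell (0.819% of all features did), and with the block 3 passed. That gene was Nfkbia, the inhibitor of NF-kappaB, at -1.53 (SE 0.31, adjusted p = 0.0179), a call lost on leaving out replicate 2 of either mutant genotype or replicate 3 of AhR null. Between AhR null and control 3 rose and 2 fell, against 6.56% and 5.8% of all features. The list median there was 0.33 against -0.03 for all features. Nfkbia rose by 2.08 (adjusted p = 0.000633), and Sigirr, an inhibitory receptor of the family, by 1.17 (adjusted p = 0.0388). Map3k7, the kinase TAK1, fell by 1.20 (adjusted p = 0.0044), and Tnfaip3, the NF-kappaB inhibitor A20, by 0.82 (adjusted p = 0.0137). The Sigirr call was lost without any 1 AhR null array or without replicate 1 or 3 of the controls, and the Tnfaip3 call without replicate 2 or 3 of AhR null or replicate 1 of the controls. The Map3k7 and Tnfaip3 falls failed on the deposited values, at -0.29 and -0.30, and with median scaling, at -0.58 and -0.29. The count of 5 was 3 on leaving out replicate 2 or 3 of AhR null or replicate 1 of the controls. Of all 7449 features 0.336% passed between AhR-d and control. With batch as a replicate block 118 features passed there, and 502 between AhR-d and AhR null.

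**Figure D4:**
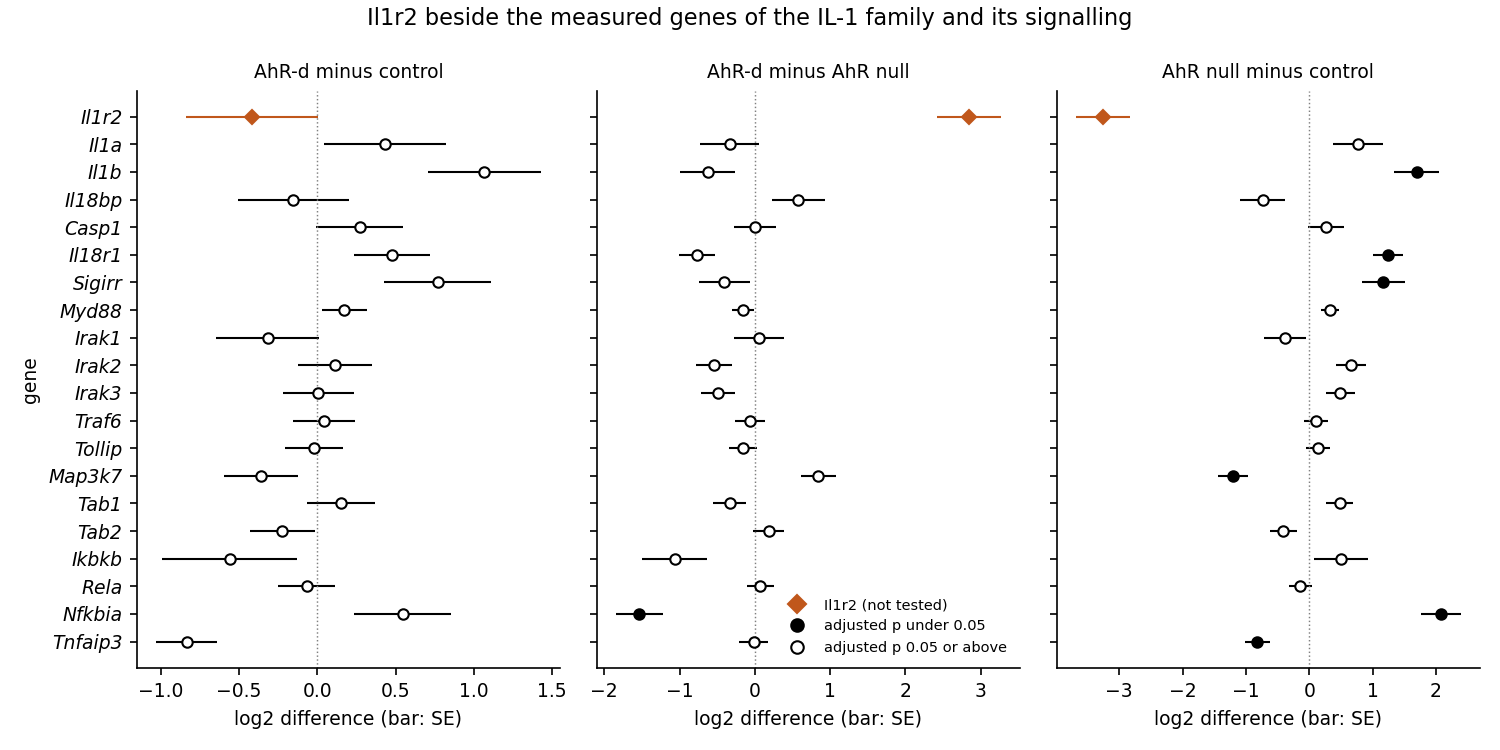
Log2 difference (x axis, bars are the SE) of Il1r2 and of the measured genes of the IL-1 family and its signalling (y axis) in the 3 comparisons; filled circles passed an adjusted p under 0.05, open circles did not, and Il1r2 was not tested. Il1r2 stands at 2.84 in AhR-d minus AhR null and -3.26 in AhR null minus control, while Nfkbia stands at -1.53 and 2.08.

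Glucocorticoid-responsive genes were examined beside Il1r2. Their medians in AhR-d minus control, AhR-d minus AhR null and AhR null minus control were -0.18, -0.12 and -0.09. Those of all features were -0.01, 0.0044 and -0.03. In that order 0.336%, 2.48% and 12.4% of all 7449 features passed, and 118, 502 and 1580 features with batch as a replicate block. Of 14 measured, 1 rose and 0 fell between AhR-d and control (4 passed with batch as a replicate block, and 2 without control replicate 2). Between AhR-d and AhR null 0 passed (4 at an unadjusted p under 0.05, and 2 with the block). Between AhR null and control 1 rose and 3 fell (8 passed with the block, and 2 without control replicate 1). The gene that rose in both was Hsd11b1, the enzyme that regenerates active glucocorticoid, by 2.73 in AhR-d against control (SE 0.32, adjusted p = 0.00155) and 3.88 in AhR null against control (SE 0.32, adjusted p = 5.2e-06). Hsd11b1 averaged 8.93 ± 0.35 in AhR-d, 10.08 ± 0.69 in AhR null and 6.20 ± 0.32 in control cells (SD, n = 3 each), so it was highest where Il1r2 was undetected and AhR-d differed from control in it but overlapped in Il1r2. Klf9, Ddit4 and Errfi1, which glucocorticoids are known to induce, fell in AhR null against control by 0.77, 0.86 and 0.91, and none of these falls passed on the deposited values or with median scaling. The Klf9 call was also lost without replicate 2 or 3 of AhR null or 1 or 2 of the controls, the Ddit4 call without AhR null replicate 1 or control replicate 2, and the Errfi1 call without AhR null replicate 3 or control replicate 1.

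No measured neighbour of Erdr1 and no sex-linked transcript passed the test between genotypes. Hccs, a mitochondrial haem lyase gene on the same side of Erdr1, differed by -0.06 between AhR-d and control (adjusted p = 0.989) and by -0.12 between AhR-d and AhR null (adjusted p = 0.867). Mid1, which spans the pseudoautosomal boundary, was detected on 1 control array and on no other, and Amelx on none. Of 2 measured genes near the boundary (Hccs and Arhgap6) and 3 sex-linked genes, 0 passed in any comparison and 0 had an unadjusted p under 0.05. Xist, the X-inactivation RNA, stood at 9.64, 9.37 and 9.65 in AhR-d, AhR null and control replicate 2, and was not detected in replicates 1 and 3. The Y-linked Eif2s3y and Kdm5d were detected in replicates 1 and 3 of every genotype and not in replicate 2. Every genotype thus had 1 array with Xist and 2 arrays with these Y-linked transcripts. The genotype test could hardly call genes so balanced, so its 0 calls among the sex-linked genes decide nothing.

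Detection of Erdr1 did not follow this batch pattern in control cells, but in AhR null cells it did match that of Eif2s3y and Kdm5d. In AhR-d cells it was undetected in replicate 2 and equally in replicates 1 and 3, so these arrays can show no pattern. In control cells all 3 arrays detected it, and replicate 2 (7.59) lay between replicate 1 (7.71) and replicate 3 (6.72). That order depends on processing: on the deposited log2 values replicate 2 was the highest, at 8.87 against 8.75 and 8.33. In AhR null cells replicate 2 was the 1 that did not detect it, and whether this goes with the batch was not tested. Without AhR null replicate 2, AhR-d minus AhR null of Erdr1 was -1.94.

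**Figure D5:**
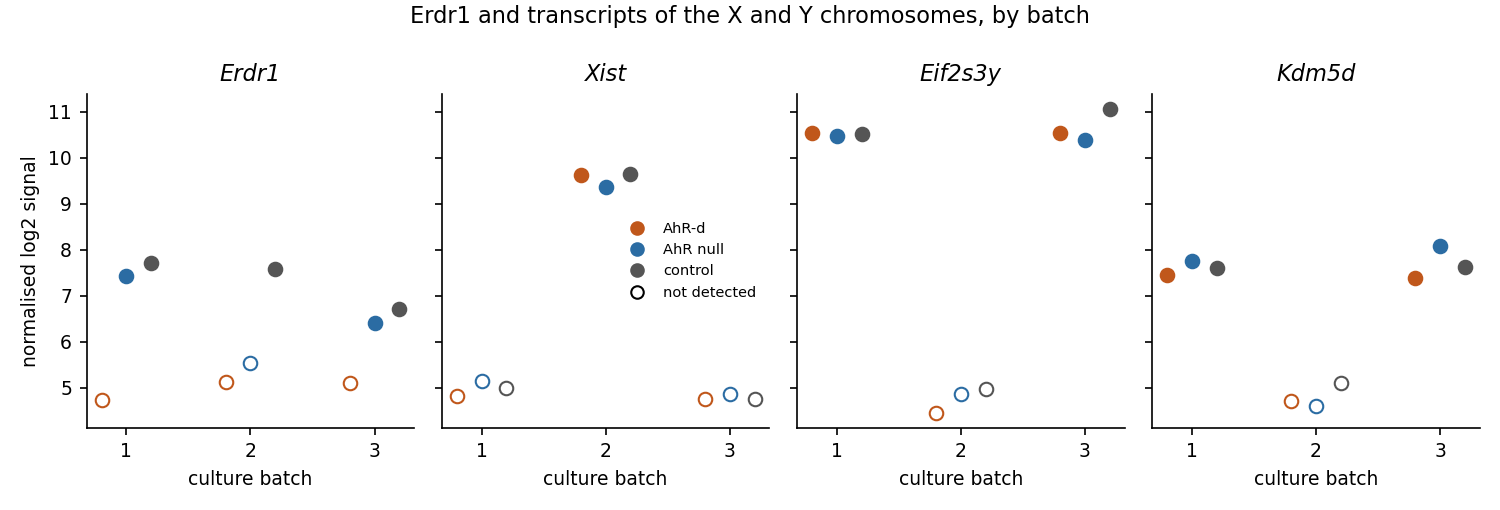
Normalised log2 signal (y axis) of Erdr1, Xist, Eif2s3y and Kdm5d by culture batch (x axis); colour gives the genotype and open symbols arrays that did not detect the probe. Batch 2 carries Xist (9.37 to 9.65) and lacks both Y-linked transcripts in every genotype, while Erdr1 is undetected in AhR-d in all 3 batches.

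Genes whose values over the 9 arrays were most like each member were named by Pearson's r, as a description over arrays that share genotype and batch. They were picked for likeness, so a placement shared with the member follows from the choice and supports nothing. For Retnla these were Sumf2 (r = 0.914), Eef1aknmt (0.895), Cdca2 (0.894), Pdzd9 (0.893) and H2ac10 (0.866). Pdzd9 and H2ac10 also had all 3 AhR-d arrays above the other 6, as had 0.685% of all features. Pdzd9 was detected on 3 of 3 AhR-d arrays and on 0 of the other 6, so it passed the detection filter only through AhR-d. For Il1r2 they were Rusc2 (0.971), Fbxo34 (0.968), Morc2a (0.967), G3bp1 (0.966) and Ifitm1 (0.965). All 5 had their AhR null arrays below the other 6, as had 8.11% of all features. Ifitm1, an interferon-induced membrane protein, averaged 14.36 in AhR-d, 11.70 in AhR null and 14.66 in control cells. For Erdr1 they were Fam177a (0.948), Mt1 (0.918), Zc3h3 (0.904), Bub3 (0.887) and Sar1b (0.881). Mt1, Zc3h3 and Bub3 had all 3 AhR-d arrays below the other 6, as had 0.55% of all features. Mt1, a metallothionein, averaged 13.41 in AhR-d, 13.80 in AhR null and 13.90 in control cells.

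Mast cell markers were counted in the same way. Of 18 measured members 1 rose between AhR-d and control, where 0.282% of all features rose. Between AhR-d and AhR null 2 fell, against 0.819% of all features. Between AhR null and control 5 rose and 1 fell, against 6.56% and 5.8% of all features. The list medians were 0.09, -0.05 and 0.06 in that order, against -0.01, 0.0044 and -0.03 for all features. Hdc, the histamine-synthesising enzyme, was the 1 that rose in AhR-d against control, by 1.30 (SE 0.25, adjusted p = 0.0463), a call that failed on leaving out any 1 of 7 arrays, among them AhR-d replicates 2 and 3. Tph1, which makes the serotonin precursor 5-hydroxytryptophan, was the 1 that fell in AhR null against control, by 0.97 (adjusted p = 0.0165). It did not pass on the deposited values (-0.49, adjusted p = 0.338), with median scaling (-0.46, adjusted p = 0.376), or without AhR null replicate 1 or 2 or control replicate 1. With batch as a replicate block 2 markers passed between AhR-d and control, where 118 of all 7449 features did. Between AhR-d and AhR null 4 markers passed with the block, where 502 of all features did. The marker count between AhR-d and AhR null was 1 without AhR-d replicate 3 or AhR null replicate 1 or 3. Between AhR null and control it was 3 without AhR null replicate 1. Summed mast cell marker levels overlapped, at 216366 to 228010 in AhR-d, 213378 to 239272 in AhR null and 206152 to 228724 in control cells.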

How the data were processed

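RNA of 9 bone-marrow-derived mast cell cultures was hybridised to single-colour Illumina Ref-8 mouse arrays. The deposited table holds linear signal intensity for 25697 probes, unscaled between arrays, made with GenomeStudio (version not given in the sources used here), per the submitters' processing notes. A detection p-value stands beside every intensity, per the file headers. A deposited series table holds log2 values, which equal the log2 of the signal shifted by 1 constant per array (0.231 to 0.928) so that the array's median is 8, with background kept.

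Intensities were corrected with normexp by the detection p-values, given an offset of 16, quantile-normalised and set on the log2 scale (neqc, limma 3.58.1, R 4.3.3). Probes with a detection p under 0.01 on at least 3 of 9 arrays were kept (9777), and the brightest probe stood for a gene, which gave 7449 features, 6864 of them named. The platform annotation names 23978 probes with 1 symbol, 0 with several and leaves 1719 unnamed, and RefSeq GRCm38.p6 changed 0 symbols. The 3 genes have 1 probe each.

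A single limma fit of genotype means over all 9 arrays (6 residual degrees of freedom, intensity trend) gave differences, SEs and Benjamini-Hochberg adjusted p-values over all features, with a threshold of 0.05. The fit was tested on simulated data. Adjusted p-values in the text are limma's. Counts of list members at an unadjusted p under 0.05 stand without the share of all features, so they are descriptions only. The number of arrays limits the precision. A group in which no array detected a probe has only a bound, and the fold is then at least the brighter mean over the higher of the probe's value and the array's lowest detected value. This bound is given only where every array of the brighter group detected the probe.

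The genes and lists were chosen with earlier results of these data known. Named genes are the 3 genes, S100a8, fixed pathway genes, called list members, the 5 most alike genes by Pearson's r and the 3 nearest genes on each side that have a probe. Il4, Il13, Retn, Arhgap6, Eif2s3y and Kdm5d were named after their values were seen. Deviations from genotype means correlated at 0.111 to 0.361 for the 9 pairs of arrays of 1 batch, and at -0.361 to 0.0676 for the 18 pairs of different batches. With the labels' batches, the replicate numbers therefore pair the arrays, and batch as a block was tried as an alternative. Other alternatives were the deposited values, median scaling, no background correction, other filters, the mean of a gene's probes, robust variance, only the 2 genotypes compared, and each array left out.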

Additional observations from a re-analysis of the deposited data

How the results depend on the processing

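Of 9 alternatives that kept all arrays, 6 leave the 3 genes' differences as they are by construction. The other 3 gave 27 values, of which 15 stayed within 1 SD of replicates and 12 moved further. These 12 came from the deposited log2 values and no background correction, whose construction keeps the background and so shrinks differences of dim probes. On deposited values and with no background correction, AhR-d minus control was 1.37 and 1.37 for Retnla and -0.70 and -0.76 for Erdr1. AhR-d minus AhR null was 1.47 and 1.54 for Retnla, 0.95 and 0.95 for Il1r2 and -0.57 and -0.44 for Erdr1, and AhR null minus control was -1.14 and -1.24 for Il1r2. With 1 array left out, AhR-d minus control ran from 2.37 to 3.53 for Retnla, -0.96 to 0.12 for Il1r2 and -2.67 to -2.17 for Erdr1. AhR-d minus AhR null ran from 3.02 to 4.00, 2.67 to 2.98 and -1.94 to -0.99, and AhR null minus control from -3.80 to -2.73 for Il1r2 and -1.37 to -0.41 for Erdr1. S100a8 in AhR-d minus control passed on deposited values (2.49, adjusted p = 0.0494), with median scaling (4.15, adjusted p = 0.0012) and with batch as a replicate block (4.53, adjusted p = 0.0194), and ran from 3.31 to 6.80 with 1 array left out. Its AhR-d minus AhR null ran from -1.58 to 1.92 and changed sign without AhR-d replicate 1 (1.92), as did that of Chil3 (1.50, adjusted p = 0.0357; range -1.15 to 1.50), since that array lacks both. S100a8 in AhR null minus control failed with no background correction (2.30, adjusted p = 0.0564) and robust variance (4.89, adjusted p = 0.144), and ran from 4.71 to 5.13. Features called between AhR-d and control, 25 in the report, numbered 9 on deposited values, 41 with median scaling, 7 with no background correction, 11 with the mean of probes, 10 with only the 2 genotypes and 118 with batch as a replicate block, and 5 (without AhR-d replicate 2) to 46 (without AhR-d replicate 1). Between AhR-d and AhR null, 185 became 123 with median scaling, 502 with the block and 82 to 243 with 1 array left out; between AhR null and control, 921 became 1580 with the block and 503 to 1000. Features with the 3 AhR-d arrays outside the other 6, 92 in the report, numbered 33 on deposited values, 30 with median scaling, 318 with no filter and 116 to 465 with 1 array left out, where fewer arrays must be separated. The median of all features in AhR-d minus control, AhR-d minus AhR null and AhR null minus control was 0.16, -0.39 and 0.53 with median scaling and 0.06, -0.24 and 0.29 on deposited values, against -0.01, 0.0044 and -0.03 in the report. Unless a cause is given, the cause was not tested. Low signal limits all 3 genes: values near background have no order.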
